A study of Mus musculus with 8 samples.

Results

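The control Flp-In-3T3 line is a mouse embryonic fibroblast line that holds an integration site but no Pax6 insert, and its baseline transcriptome was read on 3 of the 8 arrays of the series. The members are those 3 arrays, chosen by their sample titles: 2 RNA preparations of passage 13 (control 1 and control 2) and 1 of passage 19 (control 3). They were grown in high glucose DMEM with penicillin, streptomycin, 10% foetal bovine serum and 100 µg/ml Zeocin. The line without an insert is resistant to Zeocin, and no other treatment is stated. The other arrays are of the same line after stable insertion of the mouse Pax6 cDNA (2 arrays, passages 9 and 15) or of the cDNA of its splice isoform Pax6(5a) (3 arrays, passages 8, 8 and 13), both kept in 150 µg/ml hygromycin instead of Zeocin. Each insert is 1 cell line, so insert, line and antibiotic cannot be told apart, and the lines also differ in passage, with overlapping ranges. The labels do not say if the RNA preparations of a passage are from different cultures, and p-values measure only the spread between these arrays.

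Fibroblasts are the connective tissue cells that secrete and remodel collagen, fibronectin and proteoglycans, and that hold on to this matrix through integrins. 3T3 lines are fibroblast lines that arose from mouse embryos by serial passage in culture and grow without limit. A cultured fibroblast line usually makes contractile stress fibres, keeps part of the Hox gene expression of the body region it came from, and does not express the master regulators of other lineages.

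Each Illumina Mouse Ref-8 array read 24613 probes, of which 20984 name 1 gene, 1 names several and 3628 are unnamed here. A probe was called detected on an array where its detection p-value was under 0.01. Between 10338 and 10685 probes were detected per control array, against 10083 to 10685 over all 8 arrays, and the median signal before normalization was between 63.6 and 69.0 on the control arrays. In the control line 9857 probes (40.0%) were detected on all 3 arrays, 739 on 1 array, 597 on 2 and 13420 (54.5%) on none. By gene, where a gene counts as detected if any probe of it was, 7316 of 15967 genes (45.8%) were detected on all 3 arrays, 819 (5.1%) on 1 or 2 arrays and 7832 (49.1%) on none. Signals are given as log2 of the quantile-normalized signal, for the probe of each gene that was brightest in the control line, either on control 1, 2 and 3 in that order or, where a single value stands, as the mean of the 3. The lowest detected signal was 6.28, 6.25 and 6.30 on the log2 scale on control 1, 2 and 3, and genes detected on all 3 arrays had mean signals from 6.29 to 14.56, with a median of 8.51.

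**Figure D1:**
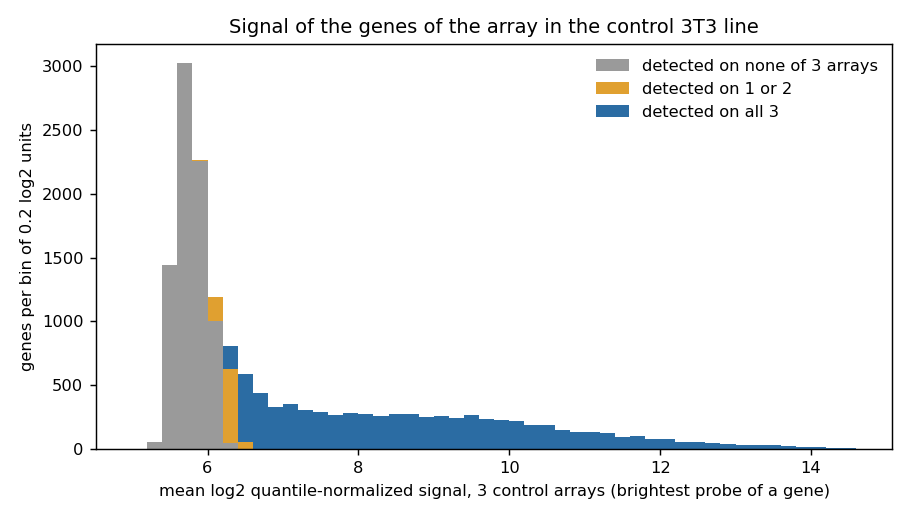
Stacked histogram of the mean log2 quantile-normalized signal over the 3 control arrays for the 15967 genes (x axis) against the number of genes per bin (y axis), coloured by whether a gene was detected on all 3 arrays, on 1 or 2, or on none. The 7832 genes detected on none form a narrow peak with a median of 5.76, and the 7316 detected genes run from 6.29 to 14.56.

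A signal on this array also depends on the sequence of the probe, so the order of genes below is an order of probe signals and not of RNA molecules, and a missing detection is a bound for 1 probe. This bound matters here. Of 3728 genes with more than 1 probe, 1340 had 1 probe detected on all 3 control arrays and another detected on none. Among 15 common reference genes, 11 were detected on all 3 arrays, but Ywhaz, Pgk1 and Sdha, which nearly every cell uses, were detected on none. The Pgk1 probe, for a glycolytic kinase, read 5.60, 5.63 and 5.80 on control 1 to 3. Of 37 listed ribosomal protein genes 34 were detected on all 3 arrays, and Rpsa and Rpl17 were detected on none. The threshold itself was close to continuous: Olfr1513, an olfactory receptor gene, passed with a highest detection p of 0.0089 and log2 signals of 6.28, 6.35 and 6.39. Chrna9, a subunit of an acetylcholine receptor, missed it with a highest p of 0.0102 and signals of 6.29, 6.25 and 6.30. Of the 7316 detected genes, 1478 had a mean signal under 7 on the log2 scale, within a short distance of this limit.

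The 3 control arrays were close to each other. Over the 9857 probes detected on all 3, the median absolute difference was 0.084 on the log2 scale between the passage 13 preparations, 0.128 between control 1 and control 3, and 0.133 between control 2 and control 3. Only 3 probes differed by more than 2-fold between the passage 13 preparations, and 29 and 28 did between each of them and passage 19. The median SD of a detected gene was 0.10 and the 95th percentile was 0.26 (n = 3). Some probes were unsteady. The probe of Fbxw5, which encodes an F-box protein and was chosen after its values were seen, read 9.89 and 9.75 on the passage 13 arrays and 5.98, below detection, at passage 19, and it was detected on only 3 of the 8 arrays, with signals between 5.86 and 5.97 on the 3 Pax6(5a) arrays and of 9.58 and 5.89 on the Pax6 arrays. The probe of Psmc1, which encodes a proteasome ATPase, read 5.82, 7.83 and 8.99 and was detected on 2 control arrays, also chosen after the values were seen.

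Detected and undetected genes were also set beside each other by the sequence upstream of their start. RefSeq promoters (build GRCm38.p6, 1 per gene, the 250 bases before the start) were matched for 12847 of the 15967 genes through Entrez identifiers. Detected genes had a median of 16 CpG dinucleotides in this window and undetected genes a median of 6. An observed over expected CpG ratio of at least 0.6 was found in 69.2% of 6004 promoters of genes detected on all 3 arrays, 45.8% of 651 promoters of genes detected on 1 or 2, and 32.6% of 6192 promoters of genes detected on none, against 50.4% of all matched genes of the array and 34.5% of the 27025 genes of the RefSeq table. The motif GGGCGG on either strand was in 59.9% of promoters of detected genes and 34.5% of those of undetected genes. CCAAT on either strand was in 37.1% and 35.0%, and TATAAA, read on the strand of the gene within the last 50 bases before the start, in 1.7% and 4.8%. The TATAAA share did not run this way in every set: it was 7.7% (6 of 78) for the 100 brightest genes, and in matrix genes 10.2% (6 of 59) for detected and 2.0% (1 of 49) for undetected members. In the whole RefSeq table the motif shares were 32.9% for GGGCGG, 34.5% for CCAAT and 2.9% for TATAAA. These shares describe the windows and were not tested, and a match is not a binding site.

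The size and direction of the CpG difference varied between gene classes. Among transcription factor genes of the lists used below, the CpG ratio was at least 0.6 in 71.4% of 119 promoters of detected genes and 64.8% of 108 promoters of undetected genes. Among genes of secreted proteins it ran the other way, with 34.1% of 41 promoters of detected and 45.6% of 57 of undetected genes. Hoxa5, a homeobox gene detected on all 3 arrays, and Hoxd13, a homeobox gene of the distal limb detected on none, both had CpG-rich windows with 28 and 31 CpG, while the window of Alb, the serum albumin gene of hepatocytes, detected on none, had 2. They are shown 5′ to 3′ over 250 bases up to the start, with each CpG in capitals, for Hoxa5 (chr6:52204588-52204837, minus strand), Hoxd13 (chr2:74667975-74668224, plus strand) and Alb (chr5:90460620-90460869, plus strand), to set the types beside each other.
Hoxa5: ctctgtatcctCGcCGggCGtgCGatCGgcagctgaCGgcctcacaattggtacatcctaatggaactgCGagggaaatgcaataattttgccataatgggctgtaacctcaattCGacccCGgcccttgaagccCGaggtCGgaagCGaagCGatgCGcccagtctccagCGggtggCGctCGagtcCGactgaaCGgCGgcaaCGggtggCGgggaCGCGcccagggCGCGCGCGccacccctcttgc
Hoxd13: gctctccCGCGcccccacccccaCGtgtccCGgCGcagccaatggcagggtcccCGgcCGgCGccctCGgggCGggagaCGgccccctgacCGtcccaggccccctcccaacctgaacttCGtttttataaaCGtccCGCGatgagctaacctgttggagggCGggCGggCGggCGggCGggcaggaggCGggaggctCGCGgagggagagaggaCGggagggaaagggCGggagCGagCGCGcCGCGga
Alb: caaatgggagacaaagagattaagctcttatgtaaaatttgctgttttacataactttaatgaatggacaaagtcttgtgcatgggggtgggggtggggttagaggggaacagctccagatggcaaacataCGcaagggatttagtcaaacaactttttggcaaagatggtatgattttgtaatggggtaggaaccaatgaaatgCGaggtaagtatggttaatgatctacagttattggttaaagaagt

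A TATAAA near the start was found in genes of either status. It lay at position -32 in Vim, the fibroblast intermediate filament gene, and at -31 in S100a4, a calcium-binding protein of motile fibroblasts, both among the brightest fibroblast markers, and also at -31 in Il1b, the inflammatory cytokine gene, which was detected on none of the control arrays. Positions count back from -1, the last base before the start, and give the first base of the motif, which is in capitals in the last 60 bases before the start of Vim (chr2:13574251-13574310, plus strand), S100a4 (chr3:90603710-90603769, plus strand) and Il1b (chr2:129371140-129371199, minus strand).
Vim: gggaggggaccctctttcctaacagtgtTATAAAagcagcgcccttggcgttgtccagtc
S100a4: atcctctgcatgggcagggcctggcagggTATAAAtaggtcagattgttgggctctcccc
Il1b: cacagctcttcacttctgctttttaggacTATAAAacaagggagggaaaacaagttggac

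Ribosomal protein genes were the most numerous of the listed genes among the 100 brightest. The 30 brightest genes lay between 14.56 and 13.93 on the log2 scale, and in 25 of the 29 neighbouring pairs the difference in mean was smaller than the larger SD of the pair, so the order inside this group is mostly not resolved. Rpl41, a protein of the large ribosomal subunit, was the brightest, at 14.56 on each of the 3 arrays. Quantile normalization gives the top probe of every array the same value, so this equality does not measure agreement between arrays. Rpl41 was followed by Rps9 (mean 14.46), Eef1g of the translation elongation complex (14.43) and Ybx1, which binds mRNA and DNA (14.40). After these came Actb, cytoplasmic beta-actin (14.28), and Gapdh of glycolysis (14.27). Lgals1, a galactoside-binding lectin that is abundant in connective tissue (14.17), Rpl13 (14.11), the metallothionein gene Mt1 (14.09), Scd2, a stearoyl-CoA desaturase (14.09), Fth1, the ferritin heavy chain (14.07), and the histone gene H2ac13 (14.07) came next. The rest of the 30 were Atp5j2, Atp5g3 and Atp5b of the mitochondrial ATP synthase, Prl2c2, Cstb, Pkm, Serbp1, Gsto1, Eef1a1, H2ac20, Anxa2, Dbi, S100a6 and the ribosomal protein genes Rpl23, Rps29, Rpl36a, Rpl37 and Rpl35.

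Prl2c2, a proliferin of the prolactin family that was first found in growing mouse 3T3 cells, was at rank 14 with signals of 14.10, 13.92 and 14.15. Genes best known from reproductive tissues were also among the 100 brightest, and were chosen after their values were seen. Rhox5, an X-linked homeobox gene of Sertoli cells, read 13.44, 13.39 and 13.58 (rank 73), and Pramel4, of the PRAME-like family, read 13.52, 13.45 and 13.41 (rank 76). Both lay far above the detection limit on all 3 arrays. The 100 brightest genes ended at 13.31 with B2m, the light chain of class I histocompatibility molecules. They held 21 of the 37 listed ribosomal protein genes, and also Rpl36a (rank 27), which is not in that list. The median SD of the 100 genes was 0.06, after a normalization that gives every array the same distribution of signals. Lox, the lysyl oxidase that cross-links collagen, was the least steady of the 100, with signals of 13.69, 13.63 and 12.97 (SD 0.40).

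Most fibroblast markers were detected. The list was written with earlier results of these arrays known, so its share is not an independent check of the labelled cell type. Of 28 measured fibroblast markers 22 were detected on all 3 arrays (78.6%, against 45.8% of all genes), 2 on 1 array and 4 on none, and the median signal of the list was 9.19 against 6.21 for all genes. Vim read 13.67, 13.64 and 13.72, and Thy1, a surface glycoprotein of fibroblasts, read 13.56, 13.54 and 13.17. Dcn, the small collagen-binding proteoglycan decorin, read 13.01, 13.05 and 13.18. Pdpn (podoplanin), S100a4, Fbln2 and Fn1 (fibronectin) had means from 11.92 to 12.81. The collagen I chain Col1a1 read 11.65, 11.68 and 11.22, while the single Col1a2 probe, for the other chain of collagen I, read 6.78, 6.75 and 6.53, just above the limit. The PDGF receptors, which drive fibroblast growth, were both detected, Pdgfra at 10.33, 10.39 and 9.99 and Pdgfrb at 7.67, 7.72 and 7.65. The mesenchymal regulators Twist1, Twist2 and Prrx1 were detected at 9.84 to 9.89 for Twist1, 11.30 to 11.39 for Twist2 and 9.69 to 10.03 for Prrx1.

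The fibroblast markers detected on none were Nt5e, Sparc, Tcf21 and Fap, and Col3a1 and Eng were detected on 1 array each. The single probe of Sparc, a matrix glycoprotein that fibroblasts secrete, read 5.98, 5.96 and 5.79. Of 18 contractile and smooth muscle markers 12 were detected on all 3 arrays. Acta2, the smooth muscle actin of myofibroblasts, read 12.43, 12.51 and 12.35, the nonmuscle myosin gene Myh9 read 13.12, 12.98 and 13.07, and the tropomyosin genes Tpm4, Tpm2 and Tpm1 were detected. Tagln, Cald1, Des, Cnn1 and Myh11, most of them genes of mature smooth muscle, were detected on none.

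**Figure D2:**
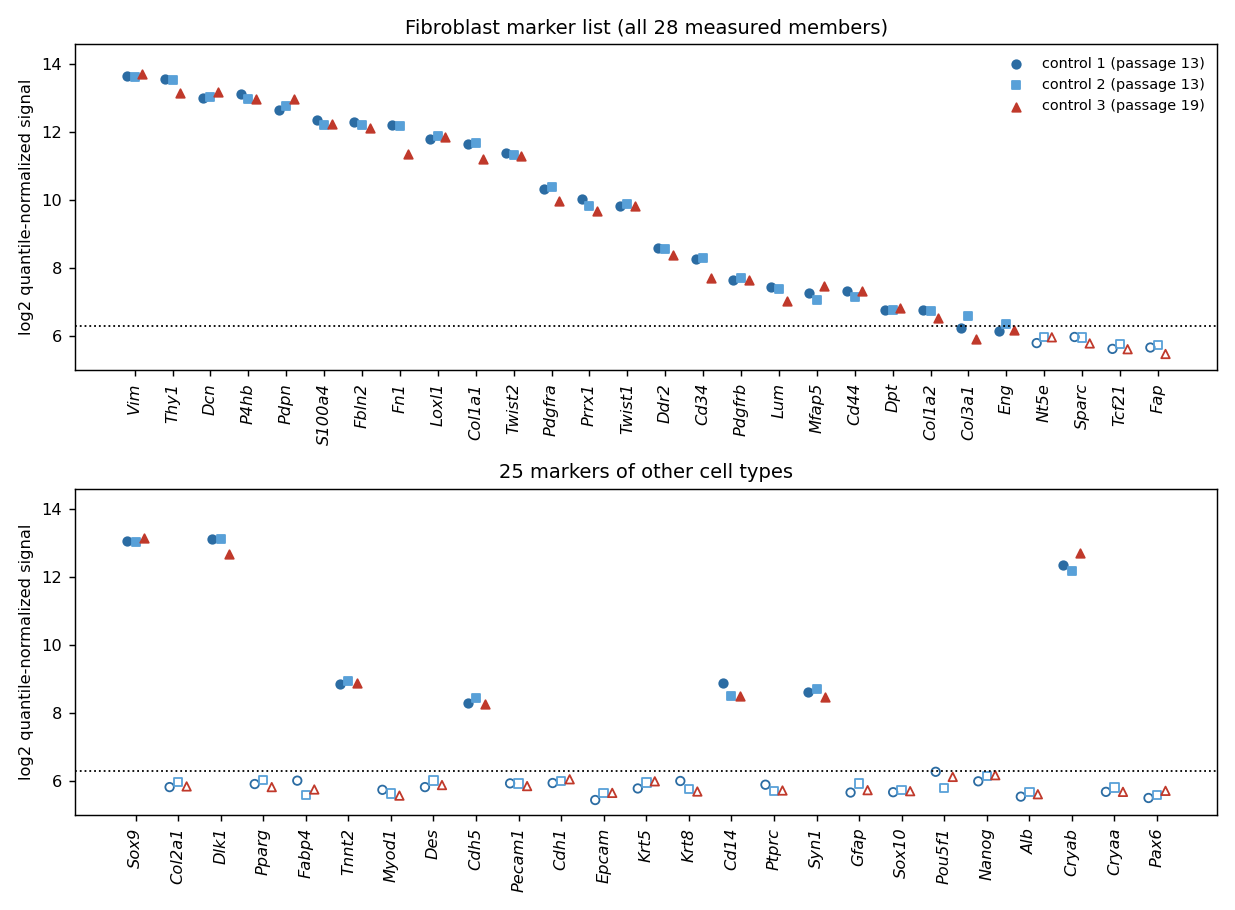
Log2 quantile-normalized signal (y axis) of the 28 fibroblast markers (top) and of 25 markers of other cell types (bottom) on the 3 control arrays, with filled points for genes detected on at least 1 control array, open points for genes detected on none, and a dotted line at the highest of the 3 lowest detected signals. Vim, Thy1 and Dcn lie above 13, and most markers of other cell types lie under the line, with Sox9, Dlk1 and Cryab above 12.

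Markers of other lineages were mostly below detection. Over 15 lists for other cell types, 34 of 207 genes (16.4%) were detected on all 3 arrays and 160 on none, and 12 of the 34 had a mean under 7. None of 10 blood and lymphoid markers was detected on all 3 arrays, Ptprc among them, and 23 of 24 lens and eye markers were detected on none. Of 15 endothelial markers 13 were detected on none, Pecam1, Kdr and Tek included, but the junction gene Cdh5 read 8.28, 8.45 and 8.27. Of 18 epithelial markers 14 were detected on none, Cdh1, Epcam, Krt8 and Krt18 among them, and the same held for 10 of 14 keratinocyte markers, 10 of 12 glial markers, 11 of 16 neuronal markers, 9 of 12 macrophage markers, 9 of 12 liver markers, 9 of 13 pluripotency markers, 7 of 9 germ cell markers, 6 of 9 bone markers, 10 of 14 adipocyte markers and 11 of 15 skeletal and heart muscle markers. Myod1, Myog, Sox10, Gfap, Alb, Pou5f1 and Nanog, all markers of these lineages, were each detected on none. Other members of these lists were detected on all 3 arrays. Among them were the transcription factor genes Klf4 (8.41) and Tbx3 (7.69), and, near the limit, Dlx5 (6.44) and Hnf4a (6.41).

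A small group of genes that are named as markers of other lineages was nevertheless bright. Sox9, the master regulator of cartilage, read 13.07, 13.03 and 13.14 (rank 139). Its partners Sox5 (8.69, 8.73 and 8.70) and Sox6 (8.45, 8.39 and 8.47) and the cartilage proteoglycan Acan (7.70, 7.68 and 7.71) were also detected, while Col2a1, Col9a1, Col11a2, Comp, Matn1 and 5 more of the 14 cartilage markers were detected on none. Dlk1, a preadipocyte surface protein that restrains fat cell formation, read 13.11, 13.13 and 12.69, and Cebpb, an early factor of fat cell formation, read 12.60, 12.80 and 12.58. The mature fat cell genes Pparg, Fabp4, Adipoq, Plin1 and Cebpa were detected on none, whereas Lpl (mean 8.10) and Plin4 (7.79) were detected. Cryab, a small heat shock protein of lens and muscle, read 12.35, 12.17 and 12.71 and was the only one of the 24 lens and eye markers detected on all 3 arrays. Other such genes included Slc1a3, a glutamate transporter (9.99), Tnnt2, a troponin of heart muscle (8.89), and Itgb4, an integrin chain (8.64). Cd14, an endotoxin receptor (8.63), Syn1, a synaptic vesicle protein (8.60), and Apoa1, a lipoprotein component (7.93), were also among them.

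Pax6 itself, the gene that was inserted in the other lines, was not detected in the control line. Its single probe read 5.50, 5.59 and 5.71 with detection p-values of 0.93, 0.82 and 0.62. The same probe was not detected on the Pax6 arrays (5.68 and 5.83) or on the Pax6(5a) arrays (5.57, 5.66 and 5.56) either. It therefore does not check the labels of the lines, and cannot show that Pax6 RNA is absent from the control line. The paper reports from RT-PCR that the control line has neither isoform. None of 8 measured Pax genes was detected on all 3 control arrays, and Pax9 was detected on 1.

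**Figure D3:**
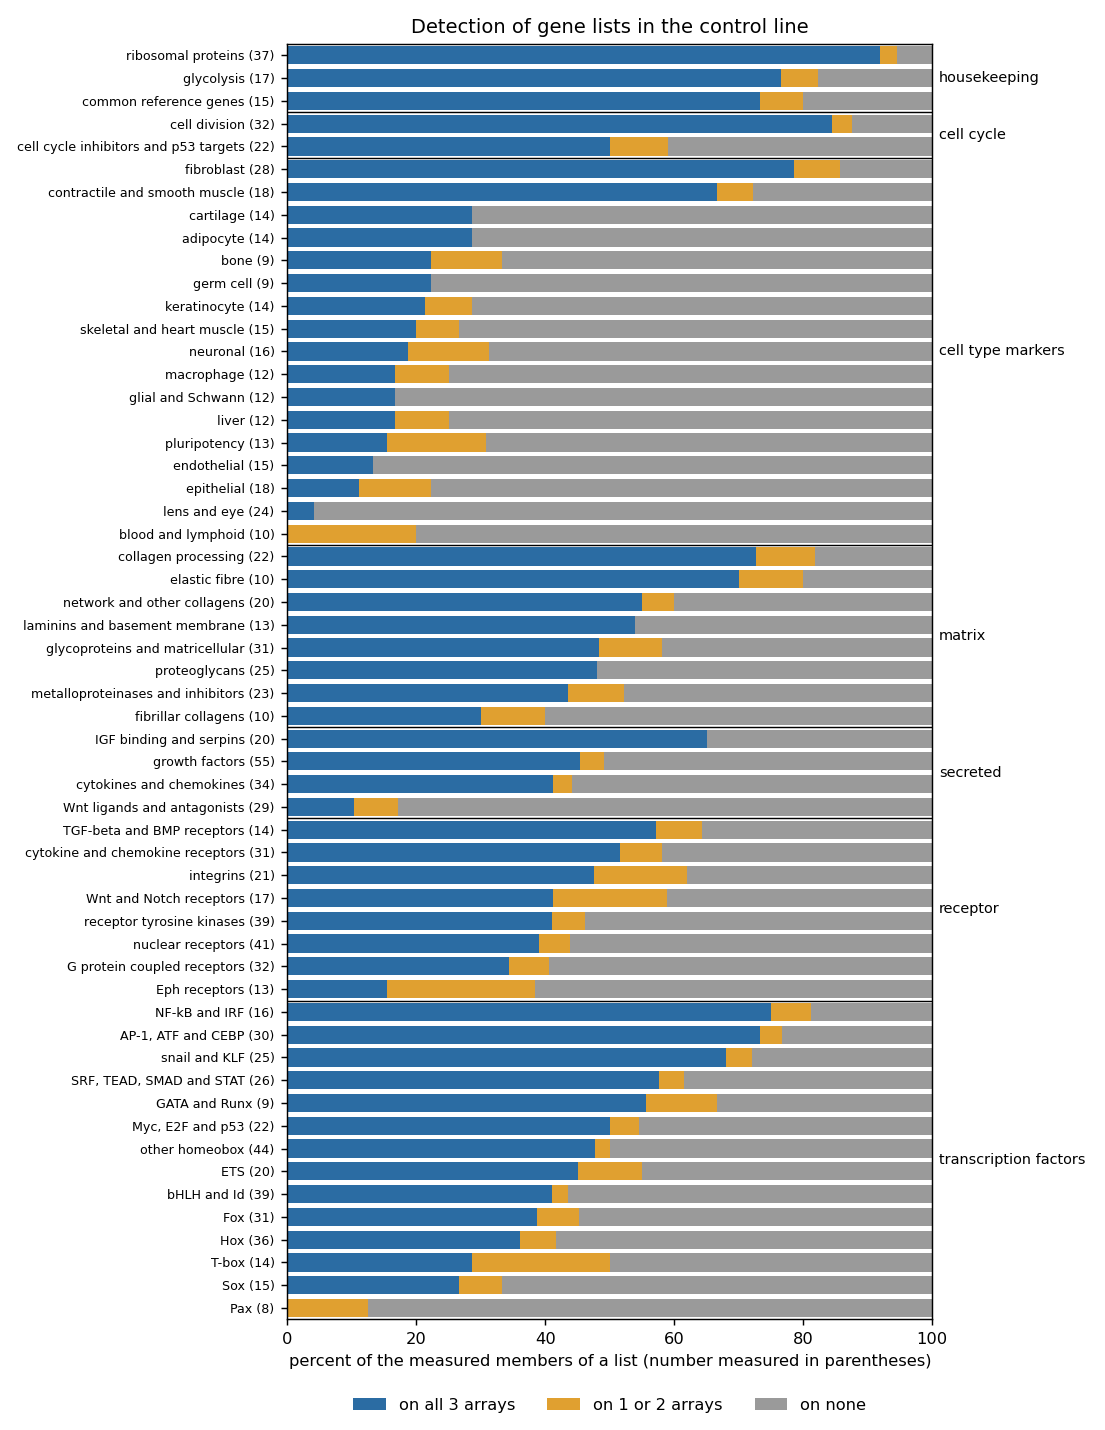
Share of the measured members of each of 56 gene lists (x axis, percent) detected on all 3 control arrays, on 1 or 2, or on none, with the number measured in parentheses and the lists ordered within 7 classes. Ribosomal protein, cell division, fibroblast and collagen processing genes have the longest detected bars in their classes, and the blood and lymphoid and Pax lists have no gene detected on all 3 arrays.

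Of 154 matrix genes 81 (52.6%, against 45.8% of all genes) were detected on all 3 control arrays and 63 on none. The brightest was Thbs2, an antiangiogenic matricellular protein, at 13.82, 13.83 and 13.76 (rank 39), and it was followed by the matrix metalloproteinase gene Mmp2 at 13.94, 13.82 and 13.36, and by Lox. Among fibrillar collagens only Col5a1 (12.20, 12.12 and 11.53), Col1a1 and Col1a2 were detected on all 3 arrays, and Col11a1, Col11a2, Col27a1, Col5a3, Col2a1 and Col5a2 were detected on none. The basement membrane collagens Col4a2 (mean 12.61) and Col4a1 (11.39), the beaded filament collagen Col6a1 (12.05, 12.08 and 11.86) and Col16a1 (12.33) were bright. Col8a1 and Col4a5 had means over 9, and Col15a1, Col18a1, Col4a3 and Col4a4 were among the 8 of this list detected on none.

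The enzymes and chaperones that make collagen were the most completely detected matrix list, with 16 of 22 detected on all 3 arrays. Besides Lox these were led by P4hb, a subunit of prolyl hydroxylase (13.13, 12.99 and 12.99), Serpinh1, the collagen chaperone (12.91, 12.89 and 12.60), Plod3, a lysyl hydroxylase (12.16, 12.15 and 12.34), Pcolce, which enhances procollagen cleavage (11.86), and Loxl1 (11.85). Of the elastic fibre genes 7 of 10 were detected, with the latent TGF-beta binding proteins Ltbp3 (11.91) and Ltbp2 (10.82) the brightest, and Eln, elastin itself, was detected on none. Of 13 laminin and basement membrane genes 7 were detected. Hspg2, perlecan, had a mean of 11.18, and Nid1, nidogen, of 11.04. The laminin chains Lamb2, Lamc1, Lama4 and Lama3 were detected, and Lama1, Lama2, Lama5, Lamb1, Lamb3 and Lamc3 were not.

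Of 31 glycoprotein and matricellular genes 15 (48.4%, near the 45.8% of all genes) were detected. Tnc, tenascin C, read 11.37, 11.33 and 10.97, and Postn, periostin, Fbln1 and Vtn were detected on none. Of 25 proteoglycan genes 12 (48.0%) were detected. They were led by Dcn, Gpc1 (11.88), Bgn, biglycan (11.83, 11.83 and 11.34), and Prelp, a leucine-rich proteoglycan (11.13, 11.12 and 11.11). Fmod, Ogn and Aspn, of the same family as Dcn, were detected on none. Among 23 metalloproteinase and inhibitor genes 10 were detected. Mmp2, its membrane-bound activator Mmp14 (11.88, 11.88 and 11.82) and the inhibitors Timp2 (12.84, 12.75 and 12.88), Timp1 (12.71, 12.57 and 13.11) and Timp3 (11.23, 11.14 and 10.62) were the bright ones, while the stromelysins and collagenases Mmp3, Mmp10 and Mmp13 did not pass 8.36 on any array.

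Of 208 receptor genes 86 (41.3%, against 45.8% of all genes) were detected on all 3 control arrays. A detected gene with a mean of at least 10 on the log2 scale was found 14 times among the 208, against 1801 times among all 15967 genes. Itgb1, the beta chain of most matrix-binding integrins, read 12.29, 12.33 and 12.40. Its alpha partners were dimmer by probe signal, with Itga3 (mean 8.90), Itga5 (7.91), Itgav (7.53) and Itga8 (6.58) detected on all 3 arrays, and Itga6 and Itga11 on 2 arrays. Of the integrin chains best known from leukocytes, Itgb7 (9.16, 8.97 and 9.78), the second brightest of the list, and Itgae (7.05, 7.33 and 7.01) were detected on all 3 arrays and Itgal on 2, while Itgb2, Itgam and Itgax were detected on none. Of 39 receptor tyrosine kinases 16 were detected. Axl, the receptor of Gas6, was the brightest at 13.32, 13.37 and 13.61 (rank 81). Ryk, a Wnt-binding member of the family, read 11.76, 11.76 and 11.53, and Pdgfra came next. Egfr (6.95), Fgfr1 (6.64) and Met (6.56) lay near the limit, and Kit, Ret, Kdr, Erbb3 and Ntrk2 were detected on none.

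Both signalling receptors of TGF-beta were detected, Tgfbr1 at 11.73, 11.83 and 11.72 and Tgfbr2 at 10.48, 10.47 and 10.28, in a list of 14 with 8 detected. Of 31 cytokine and chemokine receptors 16 were detected, led by Tnfrsf1a, the TNF receptor (11.37, 11.39 and 11.41), Ghr, the growth hormone receptor (10.62, 10.43 and 10.70), Ifngr2 (10.45) and Osmr, the oncostatin M receptor (10.41, 10.44 and 10.36). Il6st, the shared chain of the IL-6 family receptors, was detected on none by its probe. A list of 32 genes held G protein coupled receptors, the natriuretic peptide receptors Npr1, Npr2 and Npr3, and the receptor accessory genes Ramp1 and Ramp2. Of these 32 genes 11 (34.4%) were detected, Npr2 and Ramp2 included. The brightest were the thrombin receptor F2r at 12.96, 12.97 and 12.90 and the sphingosine phosphate receptor S1pr2 at 10.56. The lysophosphatidic acid receptors Lpar4 and Lpar1 had means of 9.41 and 9.14. Of 17 Wnt, Notch and Hedgehog receptors 7 were detected, with means of Fzd5, Smo, Fzd2 and Fzd7 between 7.86 and 8.65. Of the Notch receptors Notch4 was detected on all 3 arrays, near the limit (6.74, 6.94 and 6.73), Notch1 on 1, and Notch2 and Notch3 on none. Of 41 nuclear receptors 16 were detected, led by Nr2f1 (10.81, 10.85 and 11.04), and Esr1, Esr2, Pgr and Nr3c1, the glucocorticoid receptor, were on none.

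Of 335 transcription factor genes 161 (48.1%) were detected on all 3 control arrays and 155 on none, a share close to that of all genes. Sox9 was the brightest, followed by Cebpb, Cbfb, the partner of the Runx factors (12.07), Klf9 (11.82, 11.91 and 12.19), Nfe2l1 (11.60) and Xbp1, a factor of the unfolded protein response (11.83, 11.89 and 11.05). The lists with the highest shares were those of NF-kB and IRF genes (12 of 16), AP-1, ATF and CEBP genes (22 of 30) and snail and KLF genes (17 of 25). Smad4 (11.35, 11.35 and 11.27), Smad3 (10.13, 10.15 and 10.03), Stat3 (11.05, 11.33 and 10.93), Srf (10.10, 10.17 and 10.05), Yap1 (9.53, 9.55 and 9.60) and Tead2 (11.24, 11.18 and 11.17), which carry TGF-beta, cytokine, actin and Hippo signals to the genome, were all detected.

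The shares of the families that pattern tissues varied around that of all genes (45.8%). Of 15 Sox genes 4 (26.7%) were detected on all 3 arrays, of 14 T-box genes 4 (28.6%), of 31 Fox genes 12 (38.7%), of 39 bHLH genes 16 (41.0%), of 44 homeobox genes outside the Hox clusters 21 (47.7%) and of 9 GATA and Runx genes 5 (55.6%). Zeb1, a repressor of epithelial genes (10.25, 10.05 and 10.08), Prrx1, Prrx2 (9.42, 9.57 and 9.44), Meis1, a Hox partner (8.67, 8.72 and 8.59), Shox2 (8.28) and Irx5 (8.57) were among those detected. Gata2 (8.84, 9.08 and 9.39), Gata4 (7.30) and Gata6 (7.02) were detected and Gata3 was not. Neurod1, Neurog2, Ascl2, Hand1, Hand2 and Hif1a were detected on none, the last of these a factor that most cells transcribe.

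Of 36 measured Hox genes 13 (36.1%, against 45.8% of all genes) were detected on all 3 control arrays, 2 on 1 or 2 arrays and 21 on none. The detected ones were Hoxa5 (11.16, 11.25 and 10.98), Hoxa7 (10.97, SD 0.04), Hoxc6 (9.68, 9.88 and 9.57), Hoxd8 (9.59, 9.55 and 9.39), Hoxa2 (8.12), Hoxd9 (7.90), Hoxb5 (7.52), Hoxd4 (7.48), Hoxb4 (6.74), Hoxb1 (6.71), Hoxb9 (6.53), Hoxb7 (6.43) and Hoxc8 (6.35). They came from all 4 clusters. Of 26 genes of paralogue groups 1 to 9, 13 were detected on all 3 arrays, whereas of 10 genes of groups 10 to 13, which pattern the hindmost trunk and the distal limb, none was detected on any array. The order of Hoxa5 and Hoxa7 turned on control 3, and both lay above Hoxc6 on every array.

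**Figure D4:**
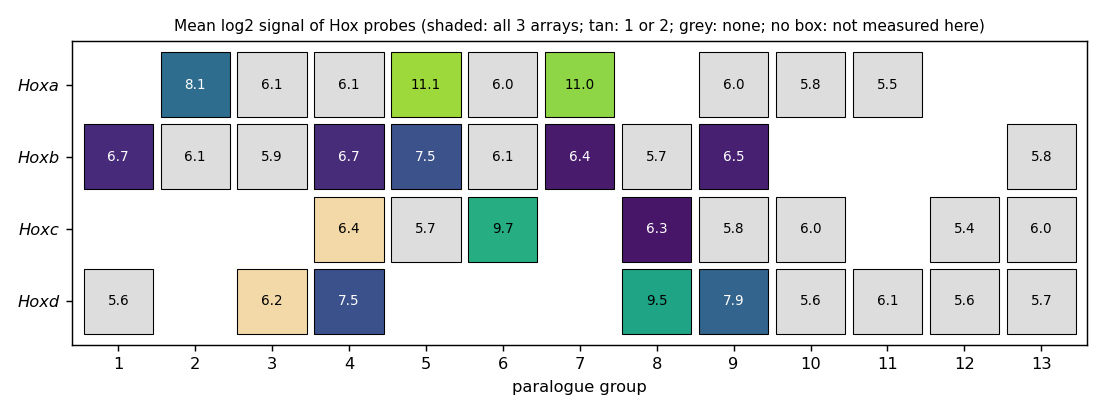
Mean log2 quantile-normalized signal over the 3 control arrays for the 36 measured Hox genes, placed by cluster (rows) and paralogue group (columns), with shaded boxes for genes detected on all 3 arrays, tan for 1 or 2 arrays and grey for none. Hoxa5 at 11.13 and Hoxa7 at 10.97 are the brightest, and all 10 boxes of groups 10 to 13 are grey.

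Genes of proliferation were widely detected. Of 32 cell division genes 27 were detected on all 3 arrays. Mcm4 of the replicative helicase (12.43, 12.41 and 12.45), Ccnd1, cyclin D1 (12.35, 12.37 and 12.44), Mcm5 (11.45), the topoisomerase gene Top2a (11.51, 11.23 and 11.23), Cdc20 (11.14) and Cdk4 (11.05) were the brightest. Ccna2, Ccnb2, Bub1 and Gmnn, also genes of dividing cells, were detected on none. Of the cell cycle inhibitors and p53 targets 11 of 22 were detected. Cdkn1a, the p21 inhibitor (12.03, 11.98 and 11.65), and Mdm2, which degrades p53 (11.02, 11.10 and 10.98), were bright. Cdkn2a, which encodes the p16 and p19 inhibitors, read 6.26, 6.14 and 6.04 by its brighter probe and was detected on none, as were Cdkn2b, Cdkn1b and Cdkn1c.

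Of 138 genes for secreted signals, binding proteins and proteases 55 (39.9%, against 45.8% of all genes) were detected. Cst3, a protease inhibitor (13.71, 13.75 and 13.56), Serpinf1, an antiangiogenic serpin (13.50, 13.51 and 13.19), Igfbp7 (12.24, 12.30 and 11.89) and Igfbp4 (11.73, 11.79 and 11.57) were bright. The growth factor list, which also holds antagonists such as Fst and Chrd and the protease gene Bmp1, had 25 of 55 (45.5%) detected. Among them were Vegfb (12.32), Vegfa (10.74, 11.01 and 10.55), Fgf10 (10.33), Pdgfa (10.09) and Hgf (8.80). The follistatin-like gene Fstl1 of this list had a mean of 11.01. Of 34 cytokines and chemokines 14 were detected. Ccl7, a monocyte attractant (12.19, 12.07 and 11.97), the alarmin Il33 (11.55, 11.58 and 11.65), Il11 (11.01, 10.98 and 11.10) and Csf1, the macrophage growth factor (10.11), led them, while Il6, Tnf, Il1a, Il1b and Cxcl12 were detected on none. Only 3 of 29 Wnt ligands and antagonists were detected, namely Wnt5a (8.07, 8.01 and 8.20), Dkk3 (7.30, 7.30 and 7.28) and Sfrp1 (6.70, 6.59 and 7.89).

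The question of how far the baseline moved with time in culture was asked by setting passage 19 (1 array) against passage 13 (2 arrays). A limma model was used in which each passage of each line had its own mean. Its spread rests on 2 residual degrees of freedom, both from pairs of RNA preparations of the same passage, and the lone passage 19 array is assumed to vary like them. The p-values therefore set 1 array against the spread between preparations, which may not be separate cultures, and describe a difference between these arrays and not between passages in general. At an adjusted p under 0.05, 69 genes were higher at passage 19 (percent of all genes called: 0.432) and 105 were lower (0.658). Of these 174 genes 151 were detected on all 3 arrays, and 21 of the 151 differed by more than 2-fold. The passage 19 RNA is a single preparation, so passage and preparation cannot be told apart. By probe the count was 224, and it was 18 after neqc background correction and 623 with a variance trend and robust prior.

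Of the detected genes lower at passage 19, Mgp, the matrix Gla protein that inhibits calcification, read 10.12 and 10.14 at passage 13 and 8.25 at passage 19 (log2 difference -1.89, adjusted p = 8.5e-06). Chac1 (-1.63, adjusted p = 3.3e-05), Trib3 (-1.14, adjusted p = 0.00054) and Ddit3 (-0.83), which are targets of Atf4 in the amino acid and endoplasmic reticulum stress responses, were lower, while Atf4 itself differed by -0.36 (adjusted p = 0.28). Also lower were the iron exporter Slc40a1 (-1.63) and the immediate early genes Egr1 (11.28 and 11.23, then 9.98) and Fos (7.16 and 7.16, then 6.31). Others among the 10 largest falls were Aox3, Ccl9, Pappa, Actg2 and Chmp4b, whose passage 13 arrays themselves differed (10.80 and 11.65, then 9.31). Matrix genes that were lower included Fn1 (12.23 and 12.19, then 11.35), Ccn1 (-0.84), Lox (-0.69), Col5a1 (-0.63), Timp3 (-0.56) and Ccn2 (-0.56). Matrix genes that were higher included Gpc6 (0.66), Mmp3 (0.63), Gpc1 (0.59) and Ltbp2 (0.54). The matrix lists were written with earlier results of these arrays known, so these genes are not independent evidence of a passage difference. The limma test called Fbxw5 at an adjusted p of 2.7e-08, at least 11.4-fold lower at passage 19, where it was not detected. It also read low on arrays of the other lines.

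Of the genes higher at passage 19, Serpina3n, Aldh3a1, an aldehyde dehydrogenase, and Saa3 differed most. Serpina3n, a secreted protease inhibitor, read 6.48 and 6.39 at passage 13 and 8.52 at passage 19 (log2 difference 2.08, adjusted p = 4.8e-06), and Saa3, serum amyloid A, read 6.90 and 6.91, then 8.38 (1.47, adjusted p = 6.2e-05). Other genes known from the acute phase response did not share this direction: Hp, haptoglobin, was lower (-0.59, adjusted p = 0.036) and Lcn2, lipocalin 2, was not called (0.37, adjusted p = 0.23). Ly6c1, Ncf4, Hsd11b1, the Wnt antagonist Sfrp1, the helix-loop-helix inhibitor Id2 and the transcription factor genes Dlx2 and Atoh8 made up the 10 largest rises. The Id genes Id1, Id2 and Id3, which are targets of BMP signalling, were all called higher, with Id2 at 6.85 and 6.96, then 8.06. Dlx1 and Dlx2 were called as well, Dlx2 at 9.23 and 9.09, then 10.27. No member of the ribosomal, glycolysis and reference gene lists was called.

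**Figure D5:**
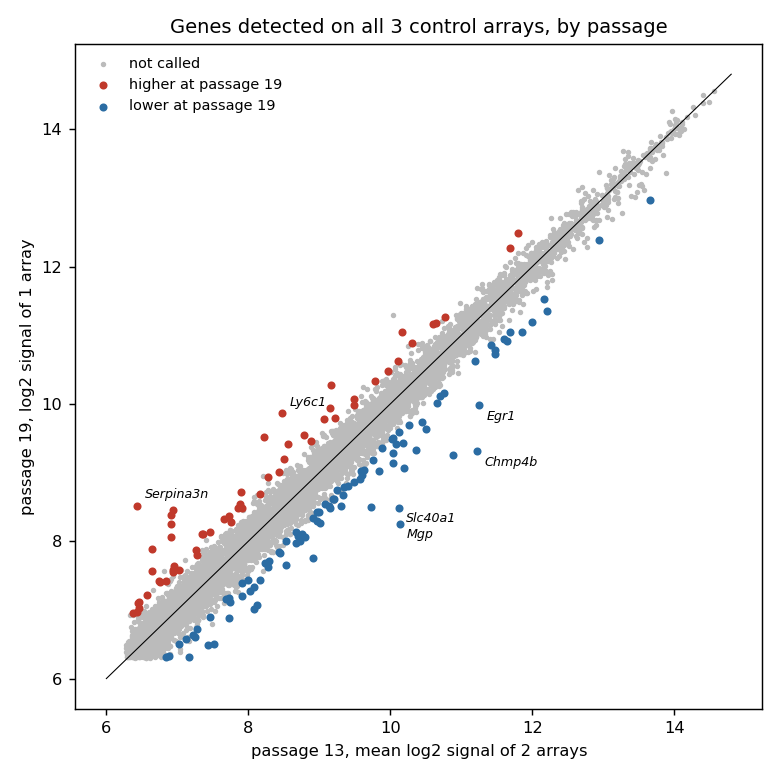
Log2 quantile-normalized signal of the genes detected on all 3 control arrays, as the mean of the 2 passage 13 arrays (x axis) against the single passage 19 array (y axis), with the line of equality and the 151 genes called by limma at an adjusted p under 0.05 in red (higher at passage 19) or blue (lower). Serpina3n, Ly6c1, Mgp, Slc40a1, Egr1 and Chmp4b are named, and most genes lie close to the line.

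The baseline was largely kept in the other lines. Of the 7316 genes detected on all 3 control arrays, 7031 (96.1%) were detected by the same probe on both Pax6 arrays and 100 on neither, and 7104 (97.1%) were detected on all 3 Pax6(5a) arrays and 32 on none. Of the 7832 genes not detected in the control line, 46 were detected on both Pax6 arrays and 42 on all 3 Pax6(5a) arrays. Calls against the control line needed an adjusted p from limma under 0.01 together with a 1.5-fold difference. Of all genes 1.03 percent were called higher for Pax6 and 0.545 percent for Pax6(5a), while 1.42 percent and 0.658 percent were called lower. By probe, the Pax6(5a) count was 238, and it was 57 with the RNA preparations of a passage averaged. Both comparisons share the 3 control arrays. Of the 100 brightest genes of the control line 1 was called in each line, Thbs2, lower in both, with means of 11.86 for Pax6 (adjusted p = 1.1e-07) and 13.21 for Pax6(5a) (adjusted p = 0.00069).

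By class, in the Pax6 line 14 of 154 matrix genes were lower and 5 higher, 17 of 208 receptor genes lower and 3 higher, 17 of 335 transcription factor genes lower and 1 higher, and 11 of 138 secreted genes lower and 7 higher. In the Pax6(5a) line the counts were 8 lower and 3 higher for matrix genes, 9 and 1 for receptors, 4 and 0 for transcription factors, and 7 and 4 for secreted genes. Over all genes, 1.42 percent were called lower and 1.03 percent higher for Pax6, and 0.658 and 0.545 percent for Pax6(5a). The lists were written with earlier results of these arrays known, so the class counts are not independent evidence. Il33 was among the bright baseline genes that were lower, with a control mean of 11.59 and means of 7.69 for Pax6 and 10.37 for Pax6(5a) (adjusted p = 2.3e-07 and 0.0018). Prelp fell to 8.20 and 8.83, and Osmr to 8.66 and 8.82. Ccn2, a matricellular protein induced by TGF-beta and by stretch (8.23, 8.24 and 7.68 in the control line), was higher at 10.57 and 10.16 (adjusted p = 3.8e-06 and 1.4e-05).

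Some genes crossed the detection limit together with a call. In the Pax6 line 27 genes detected on all 3 control arrays were called lower and detected on neither array, and 11 were so on the Pax6(5a) arrays. Hp, haptoglobin, read 8.43, 8.44 and 7.84 in the control line and was not detected in either insert line, at least 3.75-fold lower for Pax6 and 3.89-fold lower for Pax6(5a) (adjusted p = 5.8e-06 and 5.3e-06). Olfm1, a secreted olfactomedin, read 8.15, 8.02 and 8.17 and was at least 3.45-fold and 3.58-fold lower (adjusted p = 1.1e-07 and 4e-08). Crtap, a partner of collagen prolyl 3-hydroxylase (8.72, 8.91 and 8.93), was not detected in the Pax6(5a) line, at least 5.99-fold lower (adjusted p = 1.7e-08), but was detected on both Pax6 arrays, with a mean of 6.88. These bounds take the higher of the array's lowest detected signal and the probe's own signal for the dim line.

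In the other direction 21 genes that were not detected on any control array were called higher and detected on both Pax6 arrays, and 9 were so on the Pax6(5a) arrays. S100a7a, a calcium-binding protein of inflamed skin, read 6.02, 6.20 and 5.78 in the control line and was higher by at least 4.27-fold for Pax6 and 2.03-fold for Pax6(5a) (adjusted p = 1.6e-05 and 0.0013). The adhesion gene Nrcam was higher by at least 2.67-fold for Pax6 (adjusted p = 1.7e-06), and the adhesion gene Ncam1, which read 5.81, 5.82 and 5.71 in the control line, by at least 1.73-fold for Pax6(5a) (adjusted p = 4.2e-06).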

How the data were processed

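The authors deposited intensity values of 8 Illumina Mouse Ref-8 V1.1 arrays, not normalized and quantile normalized, and the detection p-values; per the labels, Trizol RNA was amplified and labelled with biotin. The scanner software, background correction and the method of the detection p-value are not given in the sources used here. Own quantile normalization of the deposited intensity matched the normalized values to within 5e-06, and log2 of these was used. Of 56 lists with 1398 entries, 1211 entries (1139 genes) were measured. The members, lists, thresholds and alternatives were chosen with earlier results of these data known.

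limma 3.58.1 in R 4.3.3 was fitted to all 24613 probes with Benjamini-Hochberg adjustment; a call of a gene is that of its brightest probe, and percentages are over 15967 genes. The fit was tested on simulated data. Named were the 30 brightest genes, up to 8 detected and 8 undetected members of each list, members on 1 or 2 arrays, Pax6, called list members (up to 6 by fold), and the 10 largest passage differences each way, with exceptions stated. Control replicate 1 and Pax6(5a) replicate 1, like both replicates 2, share a number, and the labels used here state no other link. Alternatives were other background corrections, scalings, filters, detection thresholds, a variance trend, a replicate block, averaged preparations, a passage term and left-out arrays. Figures used matplotlib 3.10.9 in Python 3.11.15. The PCR, chromatin and growth experiments were not analysed here.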

Additional observations from a re-analysis of the deposited data

How the results depend on the processing

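The number of arrays limits the precision. With a detection p under 0.05 or under 0.001, 7851 or 7146 genes were detected on all 3 control arrays and 7087 or 8054 on none. Leaving out 1 control array gave 7394 to 7508 genes detected on all arrays and 7933 to 8040 on none (probes: 9970 to 10192 and 13596 to 13764), and kept 97 to 98 of the 100 brightest genes. Quantile normalization of the control arrays alone, neqc background correction and median scaling each kept all 100, and a mean over the probes of a gene kept 85.

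Counts of called probes moved more. The passage comparison called 224 probes, 18 with neqc (9 higher and 9 lower, against 85 and 139), 511 with probes detected on at least 2 arrays, and 623 with a variance trend and robust prior; leaving out an array gave 162 to 224, with no value without control replicate 3. The Pax6 comparison called 496 probes and 295 with preparations of the same passage averaged, with a range of 372 to 612 for arrays left out. The Pax6(5a) comparison called 238 probes, 149 with neqc, 57 with preparations averaged and 501 with passage as a covariate, with a range of 159 to 284. The cause of these shifts was not tested. With the replicate number as a block, 462 and 288 probes were called; samples of the same number had correlated deviations of 0.097 and 0.122, and those of different number 0.087 and 0.089. No named gene changed direction under an alternative. Each named called gene was counted once per alternative. So counted, 196 Pax6 and 128 Pax6(5a) values missed the threshold, and 1048 and 502 passed it. The alternatives were not alike. With preparations of a passage averaged, 28 named Pax6(5a) genes missed the threshold and 14 passed, and 25 named Pax6 genes missed it and 58 passed. With neqc, 21 Pax6(5a) genes missed and 21 passed, and 31 Pax6 genes missed and 52 passed.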
